A study of Rattus norvegicus with 89 samples.

Results

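The genes described here are Lrp2, Cubn, Dab2, Clcn5 and Lrpap1, which make up the megalin and cubilin route by which the kidney takes up filtered protein. They were chosen by gene symbol, with earlier results of these data known, and are represented by 6 of the 31099 probe sets on each array. They are 5 of 14217 named genes. Of these 5 genes, 4 passed the filter on low signals and were tested among 11420 genes. Clcn5 did not pass it.

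Filtered proteins are caught at the brush border of the proximal tubule by megalin and cubilin, carried into endosomes by clathrin-coated vesicles, and degraded in lysosomes while the receptors return to the surface. Megalin also binds aminoglycoside antibiotics such as gentamicin and tobramycin, which is a route by which these drugs collect in proximal tubule cells. Albumin, vitamin D binding protein, retinol binding protein and the complex of vitamin B12 with intrinsic factor are among the natural ligands of the receptors.

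Kidney RNA was taken from 89 Sprague-Dawley rats of the Crl:CD(SD) stock, 44 males and 45 females, aged about 7 to 8 weeks at the start. The treated rats were given an aminoglycoside (tobramycin, or gentamicin, labelled Gentamycin), doxorubicin, valproic acid, cadmium or cisplatin every day for 1 or 5 days. Saline rats of 1 or 5 days and untreated naive rats were the controls, which gave 15 groups. Doxorubicin at day 5 and saline at day 5 had 5 rats each, saline at day 1 had 7, and the other groups had 6 each, with both sexes in every group. The apical parts of both kidneys of a rat were homogenised together and hybridised to 1 array. All groups share this strain, age, tissue and supplier. The labels give no doses, so a compound stands here for an unknown exposure, and the 2 aminoglycosides may differ in dose.

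Pairs of arrays had rank correlations of 0.915 to 0.985. The trimmed mean signal of an array ran from 91.5 to 352 before scaling, a ratio of 3.84, and all values below are linear signals after scaling to a common trimmed mean, or differences of log2(signal + 16). The ratio of the 3' to the 5' GAPDH control probe sets, a measure of RNA integrity, ran from 1.11 to 2.99 with a median of 1.28, and was highest in a female saline rat of day 5, 1F106. The 17 measured proximal tubule genes had a summed signal of 41715 to 81300 over all rats, so the labelled tissue carried the markers of the segment where these receptors work. The arrays measured whole tissue, in which fewer cells of a type and less RNA per cell cannot be told apart. Precision is set by how many arrays a group has. The labels do not say whether any rats shared a litter or a day of processing.

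Lrp2 encodes megalin, a giant receptor of the LDL receptor family (chromosome 3, 74597148 to 74754535 on the GRCr8 assembly). Cubn encodes cubilin, a peripheral membrane receptor that depends on amnionless (Amn) and megalin for its uptake (chromosome 17, 81293619 to 81501694). Lrpap1 encodes the receptor-associated protein, a chaperone that escorts megalin out of the endoplasmic reticulum (chromosome 14, 79876002 to 79888011). Dab2 encodes an adaptor that links the tail of megalin to clathrin (chromosome 2, 57241947 to 57294893). Clcn5 encodes the chloride and proton exchanger of early endosomes, mutated in human Dent disease (chromosome X, 17857260 to 18011844).

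The windows around the start sites of the 3 genes of the receptors and their chaperone are shown because Cubn and Lrpap1 differed between the sexes in these kidneys and Lrp2 did not pass the same test. Each runs from 250 bases before the annotated start to 50 bases after it, 5′ to 3′ on the strand of the gene, from RefSeq on GRCr8. Capitals mark GGGCGG (a GC box). The windows were also searched for AGAACA, the core of an androgen or glucocorticoid receptor site. Another search was for GTTAAT, the core of an HNF1 site. A last one was for the TATA box, spelled TATAAA. All searches covered both strands, and no matches overlapped in the windows printed. The Cubn window is chr17:81501645-81501944 and the Lrp2 window is chr3:74754486-74754785, both on the minus strand. The Lrpap1 window is chr14:79875752-79876051 on the plus strand.
Cubn: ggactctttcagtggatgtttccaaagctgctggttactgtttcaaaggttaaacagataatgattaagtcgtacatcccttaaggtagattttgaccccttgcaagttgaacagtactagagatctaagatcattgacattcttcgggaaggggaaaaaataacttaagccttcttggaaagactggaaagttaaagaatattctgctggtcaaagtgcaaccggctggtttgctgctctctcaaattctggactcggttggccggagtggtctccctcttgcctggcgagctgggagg
Lrp2: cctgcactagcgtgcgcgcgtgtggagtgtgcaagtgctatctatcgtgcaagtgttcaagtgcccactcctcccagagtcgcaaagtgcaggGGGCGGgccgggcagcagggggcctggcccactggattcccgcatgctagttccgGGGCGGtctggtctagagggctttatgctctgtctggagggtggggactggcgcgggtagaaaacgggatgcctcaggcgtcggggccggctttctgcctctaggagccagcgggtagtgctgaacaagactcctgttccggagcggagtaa
Lrpap1: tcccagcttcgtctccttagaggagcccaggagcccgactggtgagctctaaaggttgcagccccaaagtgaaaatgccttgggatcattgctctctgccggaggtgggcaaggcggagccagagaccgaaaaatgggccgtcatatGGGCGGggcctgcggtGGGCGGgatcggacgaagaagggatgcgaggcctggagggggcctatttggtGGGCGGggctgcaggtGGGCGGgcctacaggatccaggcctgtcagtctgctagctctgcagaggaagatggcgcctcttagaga

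The Cubn window held none of the 4 motifs and was 44.7% G or C. The Lrp2 window held 2 GC boxes and was 63.3% G or C, and the Lrpap1 window held 4 GC boxes and was 62.3% G or C. GC boxes were present in 33.1% of the 33469 windows of this length in the table, the receptor core in 20.7%, the TATA box in 14.2% and the HNF1 core in 7.45%. The Dab2 window, which begins inside the annotated gene, held 1 match to the receptor core, on the opposite strand. A match is only a run of letters and no match says only that these letters are not in the window.

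Cubn separated the sexes completely. Over all groups its signal was 1314 to 2613 with a median of 2054 in 44 males, against 2733 to 4347 with a median of 3643 in 45 females. No male reached the lowest female, which was a cadmium rat of day 5. Such a complete gap, with every male under every female, was found for 49 of the 11420 genes tested, or 0.429%.

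**Figure D1:**
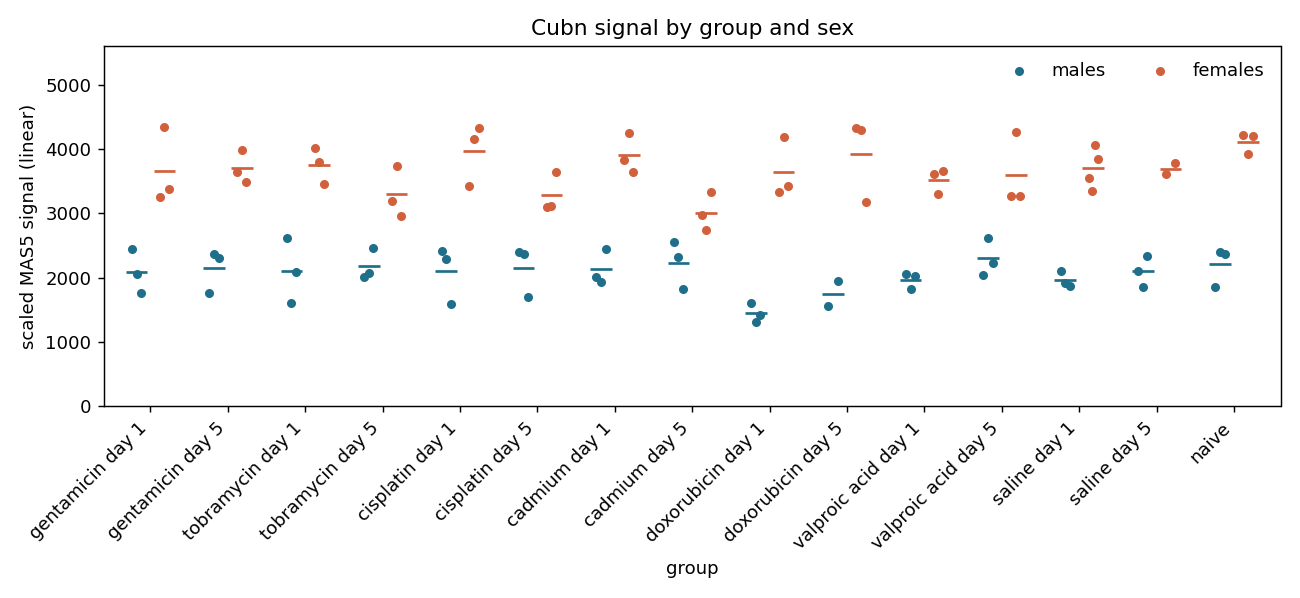
Cubn signal (vertical axis, scaled linear MAS5 signal) in each of 15 groups (horizontal axis), with 1 point per rat, males left of females, and a bar at each mean. All 44 males lie between 1314 and 2613, under all 45 females at 2733 to 4347.

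Among the 18 rats that received no compound, Cubn averaged 2089 ± 232 (SD, n = 9) in males and 3834 ± 301 (SD, n = 9) in females. The control males were 2103, 1920 and 1863 in saline at day 1, 2104, 1854 and 2332 in saline at day 5, and 1849, 2400 and 2374 in naive rats. The control females were 3541, 3338, 4057 and 3847 in saline at day 1, 3602 and 3785 in saline at day 5, and 4219, 3922 and 4197 in naive rats. The sexes did not overlap in any of these 3 groups. The male minus female difference was -0.88 on the log2 scale (SE 0.063, 95% interval -1.01 to -0.75, limma, adjusted p = 2.17e-09), which places females 1.84-fold above males. By p this ranked 56 of 11420 genes. Sex differences were common in this tissue: 23.6% of all genes tested passed, 13.8% lower and 9.82% higher in males.

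The same difference was measured in the 71 treated rats, which share no animal with the controls. It was -0.82 there (SE 0.051, 95% interval -0.92 to -0.71, limma, adjusted p = 4.97e-22), in a comparison in which 60.4% of genes passed. In single groups it ran from -1.32 in doxorubicin at day 1 to -0.44 in cadmium at day 5. Males lay under females without overlap in 15 of 15 groups, as they did for 0.928% of genes.

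Lrpap1 was also lower in males, by less. In controls it averaged 2210 ± 210 (SD, n = 9) in males and 2501 ± 140 (SD, n = 9) in females. Single control males ran from 1976 to 2601 and single control females from 2322 to 2718, so the sexes overlapped. The difference was -0.18 (SE 0.058, 95% interval -0.30 to -0.061, limma, adjusted p = 0.0278) in controls and -0.21 (SE 0.041, limma, adjusted p = 1.80e-05) in treated rats. Males were lower in 14 of 15 groups, and lay under females without overlap in 5. No share of all genes was counted for either, so neither count is shown to be particular to Lrpap1. Over all 89 rats, 40.4% of all genes passed as lower in males. The call in controls was lost without 1M1 (adjusted p = 0.0508), 1F104 (0.0510) or 1F105 (0.050). A further Lrpap1 probe set, not used in the test because it is dimmer, did not show the difference: it gave -0.087 in controls (adjusted p = 0.709) and 0.0045 in treated rats (adjusted p = 0.966). The Lrpap1 difference therefore holds for 1 of its 2 probe sets.

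The other two tested genes did not pass between the sexes. Lrp2 averaged 5228 ± 220 (SD, n = 9) in control males and 5552 ± 672 (SD, n = 9) in control females, a difference of -0.088 (SE 0.060, 95% interval -0.21 to 0.038, limma, adjusted p = 0.311). The wider female spread included rat 1F106 at 7051. In treated rats the Lrp2 difference was 0.019 (95% interval -0.039 to 0.078, adjusted p = 0.579). Dab2 averaged 3858 ± 692 (SD, n = 9) in control males and 3922 ± 599 (SD, n = 9) in control females, a difference of -0.043 (SE 0.094, 95% interval -0.24 to 0.15, limma, adjusted p = 0.773). In treated rats the Dab2 difference was 0.10 (95% interval -0.0070 to 0.21, adjusted p = 0.0999). In single groups the sign of the Dab2 difference varied, from -0.41 in doxorubicin at day 5 to 0.53 in tobramycin at day 5.

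**Figure D2:**
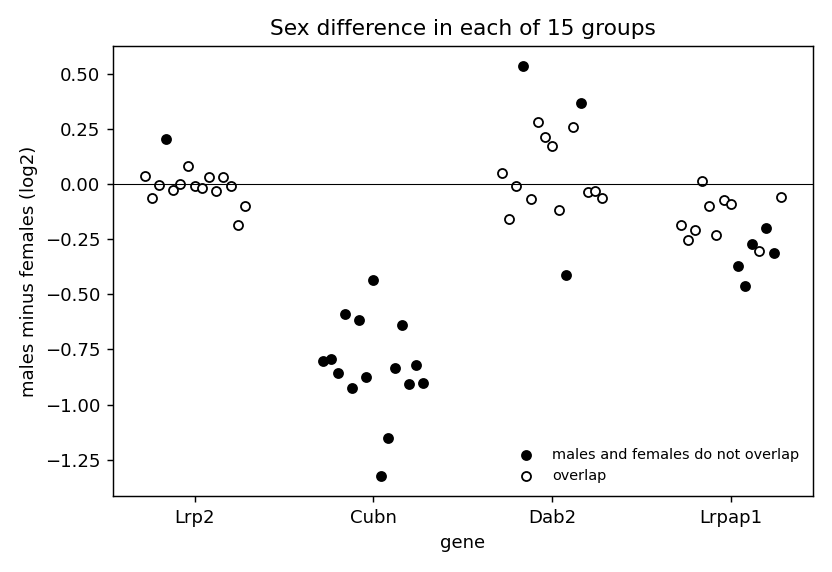
Male minus female difference (vertical axis, log2) of 4 genes (horizontal axis) in each of 15 groups, with 1 point per group, in which filled points mark groups whose males and females do not overlap. Cubn is filled and below 0 in 15 of 15 groups, from -1.32 to -0.44, while Lrp2 runs from -0.19 to 0.20.

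Most other genes of the pathway did not pass between the sexes, as was so for genes of all kinds. Of all genes tested, 13.8% were lower and 9.82% higher in control males. Of 17 measured receptor and clathrin adaptor genes, the members included, 4 were lower in control males and 1 was higher (limma, adjusted over all genes), with a median difference of -0.043 beside -0.055 for all genes. The lower ones were Cubn, Lrpap1, Hip1r (-0.61), an actin-binding protein of clathrin pits, and Clta (-0.32), a clathrin light chain. The higher one was Myo6 (0.25), a myosin that moves endocytic vesicles inward. Of 20 endosomal sorting genes, 2 were higher in males and 0 lower, among them Eea1 (0.24), a tether of early endosomes. Of 20 genes of vesicular acidification, 2 proton pump subunits were higher and 0 lower, Atp6v1g1 (0.41) and Atp6v1a (0.24). Of 14 lysosomal genes, 0 were higher and 2 were lower, the protease Ctsl (-0.53) and the beta-galactosidase Glb1 (-0.38).

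Genes of the vitamin ligands differed in both directions: 3 of 9 were higher in control males and 2 lower, beside 9.82% and 13.8% of all genes. Gc, the vitamin D binding protein, averaged 1211 ± 322 (SD, n = 9) in control males and 47.02 ± 38.9 (SD, n = 9) in control females (limma, adjusted p = 7.88e-10). The females ran from 12.8 to 102.6, in part under the limit for low signals, and the log2 difference was 3.59 to 5.10 as the constant added before the logarithm went from 64 to 1, so its size is not fixed. Rbp4, the retinol binding protein, was higher by 2.18 on the log2 scale (SE 0.43), and Folr1, the folate receptor of the brush border, by 0.60 (SE 0.099). The lower ones were Stra6, a retinol transporter, at -1.59 (-1.77 to -1.30 under the same constants), and Cd320, the receptor for the transcobalamin complex (-0.20).

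Markers of several cell types also differed with sex, where 13.8% of all genes were lower and 9.82% higher in control males. Of 17 proximal tubule genes, 8 were higher in control males and 0 lower, among them Anpep (0.88), Aqp1 (0.39) and Slc22a6 (0.74), so Cubn was lower in males while these markers of its own segment were higher. Over all rats the summed proximal tubule signal ran from 50887 to 81300 with a median of 63783 in males, against 41715 to 67395 with a median of 52129 in females. Lower in control males were 7 of 14 tubular injury genes, 5 of 8 collecting duct genes, 4 of 6 endothelial genes, 4 of 4 adipocyte genes, 2 of 7 fibroblast genes, 1 of 5 podocyte genes and 1 of 7 macrophage and granulocyte genes, and none of these lists held a higher one. The lists with 1 lower gene lie near the share of all genes. Of 5 loop of Henle and distal tubule genes and 3 red blood cell genes, 0 passed. The summed adipocyte signal was 158.5 to 1324 with a median of 343 in males, against 289 to 2809 with a median of 779 in females. The part of these other cells in the sex differences of Cubn and Lrpap1 was not tested.

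Against saline of the same day, no tested member passed with any compound. In 12 comparisons of 4 genes, 0 of 48 tests passed in limma and the lowest adjusted p was 0.461. An unadjusted p under 0.05 was found in 2 of 48, beside 3.50% to 9.62% of all genes in a comparison. The changes ran from -0.22 to 0.31 on the log2 scale, with a median of -0.021. For Lrpap1 these are changes of the brighter probe set. By mean log2 value its dimmer one was highest in saline among the day 1 groups (10.04), down to 9.67 with cisplatin. At day 5 it was 9.95 in saline, 9.99 with doxorubicin and lower with the others, down to 9.57 with valproic acid. Across the 15 groups the dimmer one did not pass (limma F test without the filter, adjusted p = 0.575). The ranges of the groups, males and females together, overlapped in all 48 comparisons. The share of all genes with such overlap was not counted, so it is not shown to be particular to the members. For Cubn the gap between the sexes makes such ranges wide, so their overlap cannot tell whether Cubn changed within a sex. Few genes of any kind passed. At day 1 the share of all genes tested was 0% with gentamicin, 0.0613% with tobramycin, 0% with cisplatin, 0.0263% with cadmium, 0.0438% with doxorubicin and 0.0788% with valproic acid. At day 5 it was 0% with gentamicin, 0% with tobramycin, 0.00876% with cisplatin, 0% with cadmium, 0.114% with doxorubicin and 0% with valproic acid. In a fit on all 89 arrays, which shares the spread of all groups, 0 of 48 member tests passed as well (lowest adjusted p = 0.595), while more genes overall did. Its shares at day 1 were 0.123% with gentamicin, 0.517% with tobramycin, 0% with cisplatin, 0.0525% with cadmium, 0.0525% with doxorubicin and 0.228% with valproic acid. At day 5 they were 0.0175% with gentamicin, 0% with tobramycin, 0.412% with cisplatin, 0.0613% with cadmium, 0.377% with doxorubicin and 0.149% with valproic acid. The members' count of 0 lies near the background of either fit.

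**Figure D3:**
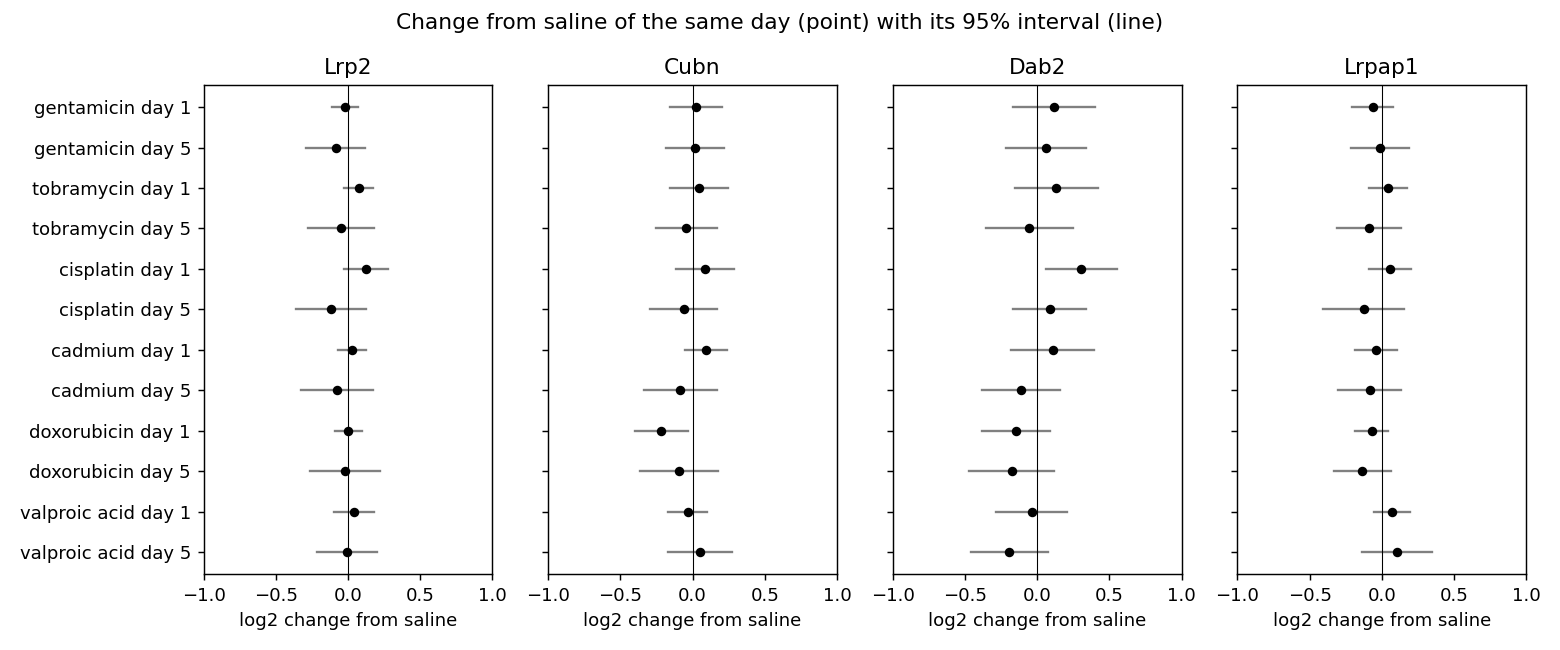
Change from saline of the same day (horizontal axes, log2) with its 95% interval for 4 genes in each compound and day (vertical axis). The points lie between -0.22 and 0.31, and the intervals reach from -0.47 to 0.55.

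Lrp2 had a lowest, median and highest signal of 4844, 5153 and 5420 with gentamicin at day 1 and 5073, 5481 and 5724 with tobramycin at day 1, against 4856, 5182 and 5384 in saline. The 3 ranges overlapped. Its change was -0.020 (95% interval -0.11 to 0.071) with gentamicin and 0.074 (95% interval -0.024 to 0.17) with tobramycin. At day 5 it had 4786, 5159 and 5564 with gentamicin and 4614, 5402 and 5740 with tobramycin, against single saline values of 4862, 5035, 5055, 5341 and 7051. The changes at day 5 were -0.085 (95% interval -0.29 to 0.12) with gentamicin and -0.046 (95% interval -0.28 to 0.18) with tobramycin. The day 5 intervals were wider, and the highest saline value was that of rat 1F106. Without it the changes were 0.017 with gentamicin and 0.086 with tobramycin, so the sign of both rests on this rat.

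Gentamicin and tobramycin were also compared directly, in 8 tests of 4 genes at 2 days, and no tested member passed at either day. At day 1 the gentamicin minus tobramycin difference of Lrp2 was -0.092 (95% interval -0.20 to 0.012, limma, adjusted p = 0.750), that of Cubn -0.018 (-0.27 to 0.24), that of Dab2 -0.015 (-0.31 to 0.28) and that of Lrpap1 -0.10 (-0.27 to 0.071). At day 5 it was -0.024 (-0.17 to 0.12) for Lrp2, 0.071 (-0.13 to 0.27) for Cubn, 0.15 (-0.16 to 0.47) for Dab2 and 0.092 (-0.12 to 0.30) for Lrpap1. The share of all genes that passed was 0% at both days, and 0 of 4 members passed. These intervals bound the difference between the compounds as given, for Lrpap1 by its brighter probe set alone. They do not show that the drugs act alike. The dimmer Lrpap1 probe set went the other way at day 1, averaging 1015 with gentamicin and 851 with tobramycin. At day 5 it averaged 966 with gentamicin and 843 with tobramycin. No interval is given for it, so the Lrpap1 difference is not bounded for both probe sets.

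Cubn under doxorubicin at day 1 was 1 of the 2 tests with an unadjusted p under 0.05, in a comparison where 9.62% of all genes had one. The males were 1602, 1314 and 1423 with doxorubicin, against 2103, 1920 and 1863 in saline. The females were 3338, 4178 and 3429 with doxorubicin, against 3541, 3338, 4057 and 3847 in saline. All 3 doxorubicin males lay under all 3 saline males, while the females overlapped. The share of all genes with such a gap in males was not counted. The change over both sexes was -0.22 (SE 0.087, 95% interval -0.40 to -0.031, limma, adjusted p = 0.461), lower in 5 of 6 rats. The male effect minus the female one was -0.42 (SE 0.14, 95% interval -0.72 to -0.11, limma, adjusted p = 0.689), so this term did not pass either. At day 5 the 2 doxorubicin males were 1556 and 1941, against 2104, 1854 and 2332 in saline, and the groups overlapped.

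Dab2 under cisplatin at day 1 was the other, in a comparison where 5.60% of all genes had an unadjusted p under 0.05. It had 3674, 4432 and 4844 with cisplatin (lowest, median and highest), against 2705, 3361 and 4436 in saline. Each of the 6 cisplatin rats exceeded the saline mean for its sex, yet the groups overlapped. The change was 0.31 (SE 0.12, 95% interval 0.061 to 0.55, limma, adjusted p = 0.860). It was 0.15 with saline and naive rats pooled as controls and 0.089 on the deposited scale. Dab2 averaged 4321 ± 522 (SD, n = 6) with cisplatin, against 3526 ± 639 (SD, n = 7) in saline and 4389 ± 351 (SD, n = 6) in naive rats. At day 5 the cisplatin change was 0.086 (95% interval -0.17 to 0.34).

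Dab2 under tobramycin at day 5 was 4277, 3562 and 5148 in males and 2987, 2745 and 3138 in females. No male overlapped a female, and the share of all genes with such a gap in this group was not counted. The gap was not particular to tobramycin, as the Dab2 sexes did not overlap in 3 of 15 groups. The others were valproic acid at day 5, with males higher (0.37), and doxorubicin at day 5, with males lower (-0.41). In saline at day 5 it was 4021, 3073 and 4217 in males and 3374 and 4310 in females, which overlapped. The male effect of tobramycin minus the female one was 0.56 (SE 0.24, 95% interval 0.044 to 1.08, limma, adjusted p = 0.674). Over 12 comparisons and 4 genes, 0 such interactions passed. The share of all genes with a passing interaction was 0.0263% for doxorubicin at day 1, 0.00876% for gentamicin at day 5 and 0% for the other 10.

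In cisplatin at day 5, Lrp2, Cubn and Lrpap1 were each lowest in the male 3M24. Havcr1, the tubular injury receptor also called KIM-1, was 3571 in that rat and 1205 in the male 3M22, against 75.7 to 208 in the other four cisplatin rats. Rat 3M24 had 4178 for Lrp2, 1705 for Cubn and 1377 for Lrpap1, and 3798 for Dab2. Rat 3M22 had 5026, 2391, 2381 and 4342, within the range of the others. Over the whole cisplatin group of day 5 the change was -0.12 for Lrp2 (95% interval -0.36 to 0.13), -0.061 for Cubn (-0.29 to 0.17) and -0.12 for Lrpap1 (-0.41 to 0.16), and 0 passed.

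**Figure D4:**
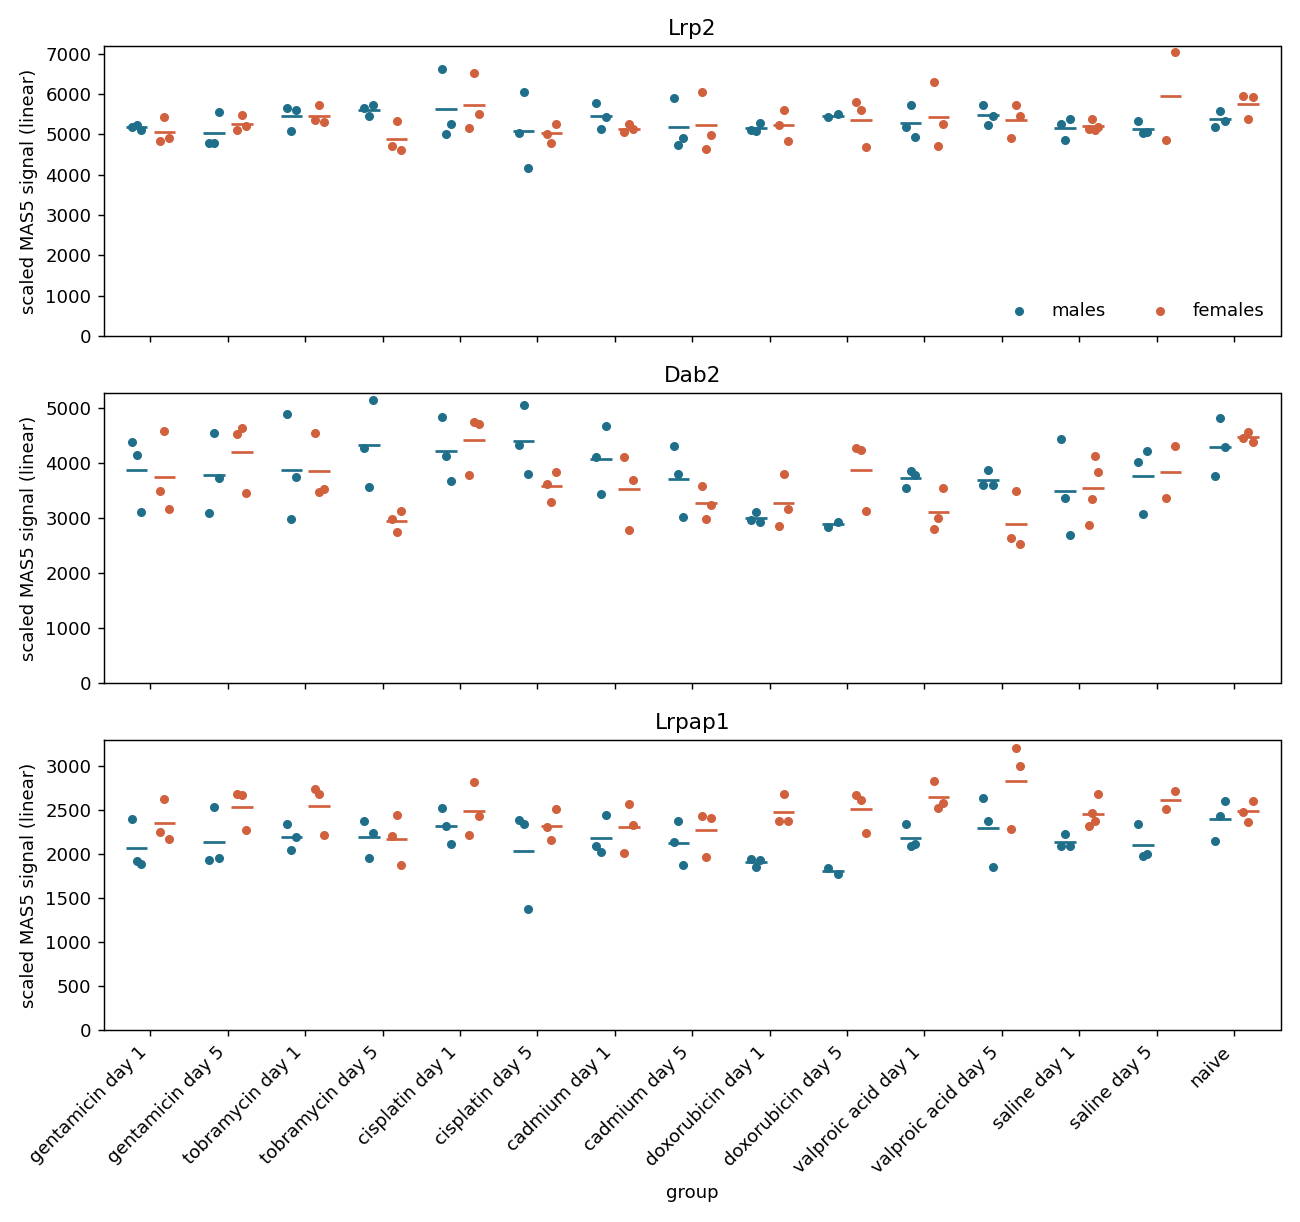
Scaled linear MAS5 signal (vertical axes) of Lrp2, Dab2 and Lrpap1 in each of 15 groups (horizontal axis), with 1 point per rat, males left of females, and a bar at each mean. The Lrp2 rat at 7051 in saline at day 5 and the Lrpap1 rat at 1377 in cisplatin at day 5 stand apart from their groups.

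No tested member passed between the days. Subtracting the day 1 effect from the day 5 effect gave values of -0.24 to 0.11 over 6 compounds and 4 genes, with a lowest adjusted p of 0.642, and 0 passed. The share of all genes that passed was 0.0613% for doxorubicin and 0% for the other 5 compounds. Saline at day 5 against saline at day 1 gave 0.078 for Lrp2, 0.049 for Cubn, 0.12 for Dab2 and 0.028 for Lrpap1, with 0 of 4 passing and 0% of all genes.

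Saline rats were set against naive rats as a comparison among controls. Dab2 had 2705, 3361 and 4436 in saline at day 1 (lowest, median and highest), against 3776, 4426 and 4831 in naive rats. The ranges overlapped, with 6 of 7 saline rats under the naive mean of their sex. The difference was -0.33 (SE 0.11, 95% interval -0.56 to -0.11, limma, adjusted p = 0.443). The difference was -0.16 for Cubn (adjusted p = 0.583) and -0.10 for Lrp2 (adjusted p = 0.607). In this comparison 0% of all genes passed and 8.13% had an unadjusted p under 0.05. Saline at day 5 gave -0.21 for Dab2 (adjusted p = 0.780), with 0% of all genes passing. Both comparisons share the naive rats.

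Across all 15 groups, with sex as a term, Dab2 had an F of 2.15 (limma, adjusted p = 0.170), and 0 of 4 members passed, where 4.46% of all genes did. By mean log2 value Dab2 and Cubn were highest in naive rats and lowest in doxorubicin at day 1. Dab2 averaged 3143 ± 347 (SD, n = 6) in doxorubicin at day 1 and 4389 ± 351 (SD, n = 6) in naive rats. Lrp2 was highest in cisplatin at day 1, at 5682 ± 709 (SD, n = 6), and lowest in cisplatin at day 5, at 5055 ± 614 (SD, n = 6). Lrpap1, by the probe set used in the tests, was highest in valproic acid at day 5, at 2558 ± 492 (SD, n = 6), and lowest in cisplatin at day 5, at 2177 ± 408 (SD, n = 6). Its dimmer probe set gave another order, lowest in valproic acid at day 5, at 776 ± 246 (SD, n = 6), and highest in saline at day 1, at 1041 ± 75.1 (SD, n = 7), with a span of 0.47 on the log2 scale, so no order of groups holds for both. From the highest to the lowest group these genes spanned 0.48 (Dab2), 0.39 (Cubn), 0.23 (Lrpap1) and 0.17 (Lrp2) on the log2 scale. No step between neighbouring groups in these orders exceeded the pooled SD of rats within groups. For Cubn that SD (0.50) holds the sex difference and exceeds the whole span, so no step could pass it. For Lrp2 (0.12) and Lrpap1 (0.20) the SD is not far under the span. The steps therefore cannot tell whether groups differ.

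Clcn5 was too dim to follow. Its signal ran from 9.81 to 36.0, and 1 of 89 arrays exceeded the limit of 33.1 used for low signals, a naive male. Its mean was 26.0 ± 6.6 (SD, n = 6) in naive rats and 15.1 to 19.9 in the other 14 groups. Naive was the one group that lay more than the pooled SD above its neighbour. Without the filter it passed in 0 of 12 treatment comparisons, with changes of -0.14 to 0.11, and across the 15 groups its adjusted p was 0.294. A gain or loss of Clcn5 could not be read at this signal.

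No gene of the wider pathway passed with a compound either. In 12 treatment comparisons, 0 of 960 tests of 80 genes in 5 lists passed. At an unadjusted p under 0.05, 19 were higher and 16 lower. Among all genes, the share with such a p ran from 3.50% with cadmium at day 5 to 9.62% with doxorubicin at day 1. The median change of the receptor and adaptor list lay between -0.094 and 0.051, that of the endosomal list between -0.019 and 0.061, that of acidification between -0.072 and 0.032, that of the vitamin ligands between -0.13 and 0.090, and that of lysosomal genes between -0.21 and 0.074. The median over all genes lay between -0.010 and 0.016 in the same comparisons. Among the marker lists, 0 of 17 proximal tubule genes and 0 of 14 tubular injury genes passed in any of them with the groups compared. At an unadjusted p under 0.05 the injury list had 32 tests higher and 2 lower, of 168, beside 3.50% to 9.62% of all genes. In the fit on all 89 arrays 3 injury genes were higher with cisplatin at day 5, namely Havcr1 (2.89, adjusted p = 0.00725), Tnfrsf12a (1.25, adjusted p = 0.0104) and Fgb (1.79, adjusted p = 0.0262). With the groups compared, their adjusted p was 0.391 to 0.504. Saline rats averaged 30.1 for Havcr1 and 20.7 for Fgb, under the limit for low signals, so these 2 sizes are not fixed. Red blood cell genes passed in both fits under doxorubicin at day 5. Hbb averaged 68.3 ± 6.4 (SD, n = 5) with doxorubicin and 4938 ± 494 (SD, n = 5) in saline, and fell by 5.88 on the log2 scale. Hba-a3 averaged 33.2 ± 12.8 (SD, n = 5) with doxorubicin and 534 ± 125 (SD, n = 5) in saline. Alas2 averaged 9.48 ± 5.07 (SD, n = 5) with doxorubicin and 162 ± 34.9 (SD, n = 5) in saline. The macrophage gene Csf1r was lower with doxorubicin at day 5 in the fit on all arrays alone (-0.74, adjusted p = 0.00466), against an adjusted p of 0.193 with the groups compared. Lists of podocyte, loop and distal tubule, collecting duct, endothelial, fibroblast and adipocyte genes had 0 that passed in either fit, as had the 5 pathway lists.

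From rat to rat the members varied together. After the mean of each group and sex was removed, Cubn and Dab2 correlated with a Pearson r of 0.720 and a Spearman rho of 0.708 over 89 rats (permutation test within groups, p = 1e-05 for both, the smallest that the 100000 permutations can give). Without the 2 rats farthest from the median of Cubn, r was 0.705. Cubn and Lrpap1 had r = 0.652 and rho = 0.665, Lrp2 and Lrpap1 r = 0.529 and rho = 0.536, and Dab2 and Lrpap1 r = 0.478 and rho = 0.508. Lrp2 with Cubn (r = 0.467, rho = 0.477) and Lrp2 with Dab2 (r = 0.409, rho = 0.410) gave the weakest. Without the 2 rats farthest from the median of the first gene named, r over the 6 pairs lay between 0.379 and 0.705. All 6 pairs had an adjusted permutation p of at most 0.000327 over 14 relations. How many pairs of other genes would do so was not counted, so these correlations are not shown to be particular to the members. Lrp2 also correlated with the GAPDH ratio of its array (r = 0.437, rho = 0.268, permutation p = 0.00124 and 0.0252, adjusted p = 0.00248 and 0.0475) and with its trimmed mean (r = -0.271, rho = -0.257, adjusted permutation p = 0.0406 and 0.0475). Without the 2 arrays farthest from the median of each measure, these r were 0.395 and -0.291. The genes of a rat share 1 array, and the part of array quality in the correlations between genes was not tested.

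**Figure D5:**
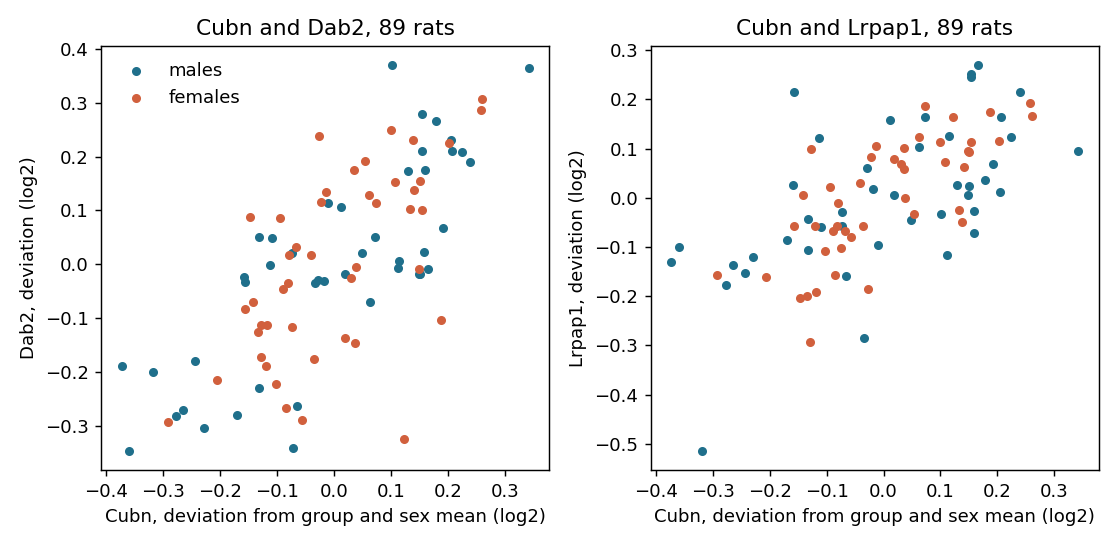
Deviation of each of 89 rats from the mean of its group and sex (log2), for Cubn (horizontal axes) against Dab2 (left, r = 0.720) and Lrpap1 (right, r = 0.652), males and females in separate colours. Rats with more Cubn signal than their group tended to have more of the other gene.

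With the sex means removed, the genes most like Dab2 over 89 arrays were Dnah7 (r = 0.913), Kcnj15 (r = 0.913), Slc7a9 (r = 0.908), Epb41l3 (r = 0.901) and Myrf (r = 0.901). Those most like Cubn were L3hypdh (r = 0.795), Mtarc2 (r = 0.769), Car14 (r = 0.768), Gnpda1 (r = 0.767) and Glb1 (r = 0.760). Those most like Lrp2 were Sod1 (r = 0.805), Pepd (r = 0.781), Atp5f1b (r = 0.779), Txn1 (r = 0.775) and Cox4i1 (r = 0.748). Those most like Lrpap1 were Tst (r = 0.744), Fuca1 (r = 0.677), Mpst (r = 0.676), Glb1 (r = 0.662) and Amn (r = 0.648), the last being the partner of cubilin. For Clcn5 the closest was Fbp1 (r = 0.490), at signals under the limit. These are descriptions across arrays, each chosen as the highest of 11420 genes.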

How the data were processed

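RNA from the kidneys of 89 rats was hybridised to Affymetrix arrays of 1 colour. The deposited values are linear intensity signals from MAS5, per the submitters' processing notes. Neither the version nor the scaling of MAS5 is given in the sources used here. Titles gave the groups. On 5 arrays (1F104, 1M2, 1M4, 2F114, 5F137) another text field on treatment is empty or disagrees.

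Each array was scaled to a trimmed mean (2% at each end) of 181. Tests used log2(signal + 16). Left out were 57 control probe sets, 436 with several symbols and 9780 with none. A gene was represented by its brightest probe set, and entered the tests where 5 or more arrays lay above 33.1, which is the 40th percentile of the scaled signals. Symbols come from the platform annotation, updated through gene IDs, and positions from GRCr8. In R 4.3.3 (package data.table, 1.17.8), limma 3.58.1 with a robust, trended eBayes compared 2 groups with sex as a term, or sexes with group as a term. The pseudocounts for vitamin ligand genes were added after seeing the data. A gene passed at a Benjamini-Hochberg adjusted p under 0.05 over all genes tested. The scripts were tested on simulated data. Figures used matplotlib 3.10.9 in Python 3.11.15.

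The members and lists were chosen with earlier results of these data known. Named are the 5 members, up to 3 passing genes of each of 15 lists in a comparison, the 5 genes most like each member by Pearson r, and Havcr1 beside injury. Myo6, Stra6 and Cd320 were named in addition, after their values were seen. Alternatives were the pseudocount, the deposited scale, quantile normalization, no filter, pooled controls and the GAPDH ratio as a covariate. Others were array weights, a fit on all arrays, and leaving out rats or the 5 arrays. A further one tested every named probe set, in which the treatment changes of a member were still those of its brightest probe set. No paired analysis was possible because no label ties a rat of one group to a rat of another.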

Additional observations from a re-analysis of the deposited data

Results flagged for a closer look

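In 90 tests of single rats within a group (6 probe sets in 15 groups), 3 rats stood apart from the rest of their group; chance flags about 1 in 20 groups. Lrp2 was 7051 in the saline female 1F106 at day 5, where the next rat had 5341, a gap of 0.747 of the range. The array of 1F106 also had the highest GAPDH 3' to 5' ratio, 2.99. Dab2 was 3810 in the doxorubicin female 6F147 at day 1, where the next had 3178, a gap of 0.628 of the range. Lrpap1 was 1377 in the cisplatin male 3M24 at day 5, where the next had 2156, a gap of 0.748 of the range.

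For Lrp2 at day 5 every treated male lay on one side of the saline males' mean and every treated female on the other side of the saline females' mean with 3 compounds. The male effect minus the female one was 0.390 with tobramycin (limma, adjusted p = 0.674), 0.219 with doxorubicin (adjusted p = 0.808) and 0.218 with valproic acid (adjusted p = 0.838). The 3 share the same 2 saline females, of which 1F106 is one, and none passed.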

How the results depend on the processing

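The treatment changes of the 4 tested members stayed without a call in every other setting that was run. The dimmer Lrpap1 probe set is not among these values. Of 528 values under other settings, 59 had the other sign and 0 passed (limma, lowest adjusted p = 0.149, with saline and naive rats pooled). With no filter, and with every named probe set tested, the changes were those of the main fit, so their signs could not turn. The sign turned in 13 of 48 with saline and naive rats pooled, and in 11 of 48 with the GAPDH ratio as a covariate. Of 572 values with 1 rat left out, 38 had the other sign and 0 passed (lowest adjusted p = 0.200). Over all genes the calls with all 89 arrays in the fit against those with the groups compared were 59 and 7 for tobramycin at day 1, 47 and 1 for cisplatin at day 5, and 43 and 13 for doxorubicin at day 5. On the deposited scale 21 of 48 had the other sign, and the median over all genes moved to between -0.31 and 0.15 on the log2 scale.

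The Cubn sex difference passed in every setting that was run, between -0.94 with quantile normalization and -0.73 on the deposited scale (adjusted p = 0.00534), and between -0.90 and -0.84 with 1 rat left out. The number of members that passed between the sexes was 1, Cubn alone, on the deposited scale and without the 3 control arrays whose treatment text is empty or disagrees, and 1 to 2 with 1 rat left out. Lrpap1 gave -0.029 on the deposited scale (adjusted p = 0.986), -0.19 without those 3 arrays (adjusted p = 0.0578), and between -0.21 and -0.16 with 1 rat left out. The cause was not tested. Doses and litters are not in the labels, and the signal of Clcn5 near the lower end of the scale limits what can be said of it.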
